A study of Mus musculus with 44 samples.

Results

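The levels of 10 genes that mark dendritic cells or their subsets were examined in mouse lung, namely Xcr1, Itgae, Clec9a, Batf3, Irf8, Flt3, Zbtb46, Ccr7, Siglech and Cd209a. The rule names them by symbol. Which measured values they were chosen by is not recorded, but among all genes Itgae and Xcr1 had some of the lowest p for rTIMP2 against vehicle in mutant tumour lungs, so their values there only describe. All 10 were taken from 2 deposited tables of normalized counts, where each symbol had 1 row, so that they make up 10 of 24150 genes in 1 table and 10 of 26940 in the other. Lung RNA came from 44 C57BL6j mice, 30 in an intratracheal and 14 in a subcutaneous tumour model. In the intratracheal model, LL/2-Luc2 cells (Lewis lung carcinoma with luciferase) were put into the airway of mice with a mutant Timp2 gene (MT2) or of wild-type mice (WT). The 6 groups of 5 lungs each were MT2 with recombinant human TIMP2 (rTIMP2), MT2 with the vehicle HBSS, MT2 tumour-free, WT with rTIMP2, WT with HBSS and WT tumour-free. In the subcutaneous model WT mice carried the same line under the skin and their lungs were taken as early metastatic lungs, after rTIMP2 from day 7 (n = 4), rTIMP2 from day 0 (n = 5) or HBSS (n = 5). TIMP2 inhibits matrix metalloproteinases outside the cell, and rTIMP2 was injected into the peritoneum each day at 200 µg per kg. The series title calls the mutation a loss of function. The allele, the age of the mice and the length of treatment are not known here, all tumour cells come from 1 line, and the labels do not say where in the lung the piece of tissue was cut.

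Dendritic cells take up antigen in tissues, carry it to lymph nodes and present it to T cells. Conventional type 1 cells (cDC1) present antigen of dead cells to CD8 T cells, conventional type 2 cells (cDC2) mainly address CD4 T cells, and plasmacytoid cells (pDC) make type I interferon. In mouse lung the cDC1 lie close to the airway epithelium and carry the integrin CD103. Xcr1 is the receptor of the chemokine Xcl1, Clec9a binds actin of dead cells, and Itgae encodes CD103, which pairs with Itgb7 and binds E-cadherin (Cdh1). Batf3 and Irf8 are transcription factors that cDC1 need, and Zbtb46 is a transcription factor of conventional dendritic cells. Flt3 is the receptor through which Flt3l drives dendritic cell growth, Ccr7 guides migrating cells to lymph nodes, Siglech is a lectin of pDC, and Cd209a is a lectin of cDC2 and of monocyte-derived cells. Several of these genes are also used elsewhere: Itgae and Ccr7 by T cells, Irf8 by macrophages and B cells, and Zbtb46 by endothelium.

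In GENCODE M21, whose gene starts match the tables (build mm10, GRCm38), Xcr1 lies on chromosome 9 at 123852315 to 123862029 on the minus strand and Itgae on chromosome 11 at 73090583 to 73147446 on the plus strand. Clec9a is on chromosome 6 at 129408862 to 129424763 (plus) and Batf3 on chromosome 1 at 191097847 to 191108945 (plus). Irf8 and Cd209a share chromosome 8, at 120736358 to 120756694 (plus) and 3743397 to 3748984 (minus). Flt3 is on chromosome 5 at 147330741 to 147400489 (minus), Zbtb46 on chromosome 2 at 181387762 to 181459426 (minus), Ccr7 on chromosome 11 at 99144196 to 99155077 (minus) and Siglech on chromosome 7 at 55768178 to 55778925 (plus). The end of Clec1b overlaps the start of Clec9a by 474 bases on the same strand, and Haspin lies inside Itgae on the opposite strand over 2810 bases. The strand used in counting is unknown, so reads of Itgae and Haspin may not have been told apart. Values of Clec1b and Haspin stand beside some of the results below. In addition, Gm20388 spans Irf8 over all its 20337 bases on the same strand, and Gm26597 overlaps Flt3 by 936 bases on the opposite strand. Gm43914 lies inside Clec9a and Gm22708 inside Zbtb46, each on the same strand. The part of these numbered gene models in the levels of Irf8, Flt3, Clec9a and Zbtb46 was not tested.

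RefSeq promoter windows of 300 bases on GRCm38.p6, which end 50 bases after a gene's start, were at hand for 8 of the 10 genes (9 windows, since Irf8 has 2). Windows of Itgae and Ccr7 were not used here. Both strands were searched for TGANTCA, a core to which dimers of basic leucine zipper factors such as Batf3 bind. The window of Zbtb46 held 1 TGANTCA and the other 8 windows held none, where 7.81% of 32851 promoter windows hold at least 1. The promoters shown are those of Xcr1, of Zbtb46 as the window with a match, in capitals, and of Batf3 as the gene that was called in neither tumour comparison below.
Xcr1 (chr9:123861980-123862279, minus strand): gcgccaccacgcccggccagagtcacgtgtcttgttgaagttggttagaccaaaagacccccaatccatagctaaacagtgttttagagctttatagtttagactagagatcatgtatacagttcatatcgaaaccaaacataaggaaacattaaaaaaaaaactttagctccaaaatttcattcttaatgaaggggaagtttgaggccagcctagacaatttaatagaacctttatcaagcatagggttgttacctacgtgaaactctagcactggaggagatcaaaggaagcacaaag
Zbtb46 (chr2:181424339-181424638, minus strand): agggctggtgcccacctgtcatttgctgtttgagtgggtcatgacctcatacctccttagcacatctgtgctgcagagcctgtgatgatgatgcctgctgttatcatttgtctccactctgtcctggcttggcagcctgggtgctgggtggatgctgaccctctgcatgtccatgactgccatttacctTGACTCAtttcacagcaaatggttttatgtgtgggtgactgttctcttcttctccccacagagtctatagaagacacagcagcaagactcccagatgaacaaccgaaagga
Batf3 (chr1:191098164-191098463, plus strand): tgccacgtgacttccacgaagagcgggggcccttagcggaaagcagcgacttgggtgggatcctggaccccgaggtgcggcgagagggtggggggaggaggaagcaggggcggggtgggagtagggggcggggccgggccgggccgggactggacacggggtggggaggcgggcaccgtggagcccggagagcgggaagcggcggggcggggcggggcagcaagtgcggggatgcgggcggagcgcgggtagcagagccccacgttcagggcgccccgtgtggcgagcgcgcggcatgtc
The window of Xcr1 was 40.0% G and C with 6 CpG, that of Zbtb46 50.7% with 1 CpG and that of Batf3 75.7% with 34 CpG. The windows of Zbtb46 and Batf3 lie inside the gene as GENCODE draws it, since RefSeq places these starts farther downstream. A match or its lack describes these letters only.

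The values are normalized counts as deposited. Estimated depth was 10.68 to 17.12 M reads (M, mega) in intratracheal and 14.85 to 19.39 M in subcutaneous libraries, from the steps between low values. The tables were normalized separately, so levels were compared within a table only. The reporter Luc2 was at 0 in the 10 lungs without tumour cells, at 0 in WT rTIMP2 replicates 2, 3 and 5, and at 0.983 in MT2 rTIMP2 replicate 2, against 47.6 to 70.9 in MT2 HBSS and 39.3 to 69.2 in WT HBSS lungs. Xist and Ddx3y, transcripts that differ by sex, chosen after their values were seen, also moved with the groups. Xist was 119 to 4843 in MT2 rTIMP2, 1153 to 8305 in MT2 HBSS, 4488 to 6657 in MT2 tumour-free, 42.2 to 2033 in WT rTIMP2, 2399 to 6691 in WT HBSS and 4118 to 5057 in WT tumour-free lungs. Ddx3y was 234 to 1265 in MT2 rTIMP2, 123 to 525 in MT2 HBSS, 0.910 to 2.72 in MT2 tumour-free, 633 to 1321 in WT rTIMP2, 209 to 672 in WT HBSS and 0.958 to 5.78 in WT tumour-free lungs. All tumour-free lungs thus had high Xist with little Ddx3y, and every lung given tumour cells had Ddx3y. The sample numbers of tumour-free lungs also belong to a separate run of numbers. Cohort and sex cannot be told apart from the tumour in comparisons with tumour-free lungs, and their part in the other differences was not tested. Surfactant and other epithelial transcripts marked the tissue as lung in every library, and all 10 dendritic cell genes were above 20 in every tumour-free lung.

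In both genotypes all 10 genes averaged lower in HBSS tumour lungs than in tumour-free lungs, and of the genes tested Batf3 alone was called in neither. Each comparison was fitted with limma on log2 of the value plus 1, over all genes that reached a value of 10 in at least as many libraries as the smaller group had. Genes with a p under 0.05 after Benjamini-Hochberg adjustment across every gene of the fit were called, and all 10 genes entered both fits. In MT2 lungs 67.4% of 16999 tested genes were called and 35.9% were called lower, and 6 of the 7 genes other than Xcr1, Itgae and Siglech were called lower. Those 3 are left out of the MT2 counts because the first 2 may have been chosen for their values in these lungs, and Siglech, like Xcr1, passed the filter through the tumour-free lungs alone and so had to differ. In WT lungs 70.5% of 16967 genes were called and 37.7% were called lower, and 9 of the 10 were called lower. Of the 8 genes other than Xcr1 and Itgae, 7 were called lower in WT lungs. Without overlap between the groups, 5 of the 7 genes other than Xcr1, Itgae and Siglech were lower in MT2 lungs. Of all tested genes 31.4% were. In WT lungs 9 of the 10 were lower without overlap, where 31.1% of all tested genes were. The median log2 difference of the 10 genes was -3.03 in MT2 and -1.73 in WT lungs, while the median over all tested genes was -0.05 in MT2 and -0.07 in WT lungs, and the first is a description for the same reasons. In bulk tissue, fewer cells of a type, less RNA per cell and a larger share of RNA from the injected cells cannot be told apart.

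Xcr1 was at or near 0 in most MT2 HBSS tumour lungs. Its normalized counts were 0, 0, 0.966, 9.51 and 0.835 in the 5 MT2 HBSS lungs and 35.1, 57.1, 78.9, 50.0 and 61.0 in the 5 MT2 tumour-free lungs. All MT2 HBSS lungs except replicate 4 were below 1, and the groups did not overlap. The WT HBSS lungs had 22.4, 24.1, 7.28, 15.7 and 8.07, and the WT tumour-free lungs had 54.9, 54.3, 50.8, 59.5 and 55.0. These groups did not overlap either, and the tumour-free lungs varied little among themselves. The fitted log2 difference was -4.75 ± 0.59 (SE) in MT2 and -1.90 ± 0.34 in WT lungs (limma adjusted p = 0.00044 in WT). With values at 0, the fitted difference in MT2 lungs depends on the 1 added before the logarithm, and Xcr1 passed the filter there through its tumour-free lungs alone. No p is given for Xcr1 and Itgae in comparisons that hold MT2 HBSS or MT2 rTIMP2 lungs, because both genes were among the lowest p of a comparison between those groups and may have been chosen for it.

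Itgae was also lower in every HBSS tumour lung than in any tumour-free lung. Its values were 8.17, 8.60, 9.66, 11.4 and 10.0 in MT2 HBSS lungs and 112, 105, 112, 104 and 92.8 in MT2 tumour-free lungs, a log2 difference of -3.33 ± 0.20. In WT lungs they were 28.7, 18.6, 25.5, 29.3 and 9.08 with HBSS and 80.9, 105, 114, 86.8 and 88.6 without tumour, a difference of -2.14 ± 0.31 (limma adjusted p = 0.00012). The MT2 HBSS lungs lay close together and the groups were apart in both genotypes. Haspin, on the other strand, went the other way, with 102 ± 29.4 (SD, n = 5) in MT2 HBSS and 27.8 ± 9.84 in MT2 tumour-free lungs, and 114 ± 30.9 in WT HBSS and 25.1 ± 4.91 in WT tumour-free lungs. Itgb7, the partner chain of CD103, rose in HBSS tumour lungs, by 1.72 ± 0.22 in MT2 (adjusted p = 3.1e-05) and 1.53 ± 0.16 in WT lungs (adjusted p = 1.5e-05). Cdh1, the ligand of CD103 and an epithelial adhesion gene, fell to 71.5 to 551 in MT2 HBSS lungs, against 5015 to 5422 in MT2 tumour-free lungs (adjusted p = 1.0e-05).

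Clec9a fell in both genotypes, by close to the same size. It was 209, 269.8, 191, 225 and 180.3 in MT2 HBSS lungs and 421, 488, 470.4, 548 and 409.8 in MT2 tumour-free lungs. In WT lungs it was 209, 169, 235, 224 and 215 with HBSS and 454, 501, 518, 431 and 420.4 without tumour. The log2 differences were -1.12 ± 0.14 (limma adjusted p = 3.6e-05) and -1.14 ± 0.12 (adjusted p = 1.3e-05), with no overlap in either genotype. Thus MT2 HBSS lungs in which Xcr1 was listed at 0 still had Clec9a above 200. The neighbour Clec1b, a receptor of platelets, averaged 99.6 ± 13.2 in MT2 HBSS and 108 ± 11.6 in MT2 tumour-free lungs, and its part in the level of Clec9a was not tested.

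Among the transcription factors, Irf8 and Zbtb46 fell and Batf3 was not called. Irf8 was 335, 315, 338, 383 and 329 in MT2 HBSS lungs, against 962, 907, 1071, 901 and 837 in MT2 tumour-free lungs, a log2 difference of -1.46 ± 0.11 (limma adjusted p = 1.0e-06). The WT lungs had 802, 632, 506, 479.9 and 339 with HBSS and 1018, 977, 924, 969 and 1027 without tumour, a difference of -0.89 ± 0.19 (adjusted p = 0.00143). The MT2 HBSS lungs lay close together, while the WT HBSS lungs were spread from that level to just below the tumour-free one. Zbtb46 averaged 73.3 ± 46.5 in MT2 HBSS and 610.0 ± 60.8 in MT2 tumour-free lungs, a difference of -3.26 ± 0.36 (adjusted p = 1.2e-05), and 127 ± 112 in WT HBSS and 529.5 ± 73.6 in WT tumour-free lungs, a difference of -2.42 ± 0.45 (adjusted p = 0.00069). Zbtb46 moved beside endothelial genes: 8 of 8 endothelial markers fell in each genotype, and their summed level was 2418 to 9982 in MT2 HBSS and 55510.0 to 61838 in MT2 tumour-free lungs, with none at 0. The part of endothelium in Zbtb46 was not tested.

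Batf3 was 10.2, 2.15, 6.76, 27.6 and 23.4 in MT2 HBSS lungs and 24.7, 24.7, 34.5, 25.5 and 20.6 in MT2 tumour-free lungs. Its WT values were 35.0, 28.4, 20.6, 26.2 and 18.2 with HBSS and 39.5, 31.0, 27.8, 38.0 and 23.4 without tumour. The ranges overlapped in both genotypes, most of all in WT, and the log2 differences were -1.23 ± 0.54 (limma adjusted p = 0.0616) and -0.32 ± 0.25 (adjusted p = 0.282). Without MT2 HBSS replicate 4 or 5, the lungs with the highest Batf3 of their group, the MT2 difference was called, at -1.56 and -1.50.

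The growth factor receptor Flt3 was 27.1 to 79.6 in MT2 HBSS lungs and 64.7 to 90.7 in MT2 tumour-free lungs, which overlap, and 33.3 to 70.0 in WT HBSS and 80.4 to 127 in WT tumour-free lungs, which do not. The log2 differences were -0.77 ± 0.30 (limma adjusted p = 0.0396) and -0.75 ± 0.23 (adjusted p = 0.0129). In MT2 lungs Flt3 lost its call with TMM rescaling (adjusted p = 0.0568) and without any 1 of 7 libraries, namely MT2 HBSS replicates 1 and 3 and each of the 5 MT2 tumour-free libraries, while the difference over all such fits lay between -0.97 and -0.59. Its ligand Flt3l fell in both genotypes, with a log2 difference of -1.64 ± 0.24 in MT2 (adjusted p = 9.5e-05) and -1.13 ± 0.18 in WT lungs (adjusted p = 0.00019). Xcl1, the ligand of Xcr1, was too low to be tested, at 0 to 7.61 in MT2 HBSS and 1.82 to 8.44 in MT2 tumour-free lungs.

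Ccr7 and Cd209a also fell in both genotypes, and Siglech fell in WT lungs. Ccr7 was 9.19, 16.1, 76.3, 80.9 and 57.6 in MT2 HBSS lungs and 213 to 367 (median 234) in MT2 tumour-free lungs, a log2 difference of -2.80 ± 0.55 (limma adjusted p = 0.00079), and -1.55 ± 0.39 in WT lungs (adjusted p = 0.00451). Siglech was listed at 0 in 4 of 5 MT2 HBSS lungs and at 8.56 in replicate 4, against 49.3, 40.9, 59.9, 40.0 and 47.8 in MT2 tumour-free lungs. MT2 HBSS replicate 4 was also the lung with Xcr1 above 1, so both transcripts were highest in the same library of their group. The WT HBSS lungs had 19.7, 6.56, 10.9, 9.43 and 5.04 and the WT tumour-free lungs 61.6, 33.9, 46.0, 59.5 and 43.8. The fitted difference of Siglech was -4.94 ± 0.60 in MT2 lungs, given without a test since it depends on the added 1 and on a filter passed by the tumour-free lungs alone, and -2.24 ± 0.35 in WT lungs (adjusted p = 0.00018). Cd209a was 1.02, 1.07, 1.93, 11.4 and 19.2 in MT2 HBSS lungs, against 92.5 to 114 in MT2 tumour-free lungs, and 71.7, 17.5, 4.85, 43.0 and 4.03 in WT HBSS lungs, against 90.2 to 133 in WT tumour-free lungs. Its differences were -4.44 ± 0.62 (adjusted p = 6.8e-05) and -2.71 ± 0.68 (adjusted p = 0.00438), and in both genotypes the highest HBSS lung stayed below the lowest tumour-free lung. With MT2 HBSS values of 1.02, 1.07 and 1.93, the size of the MT2 difference of Cd209a also depends in part on the added 1.

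**Figure D1:**
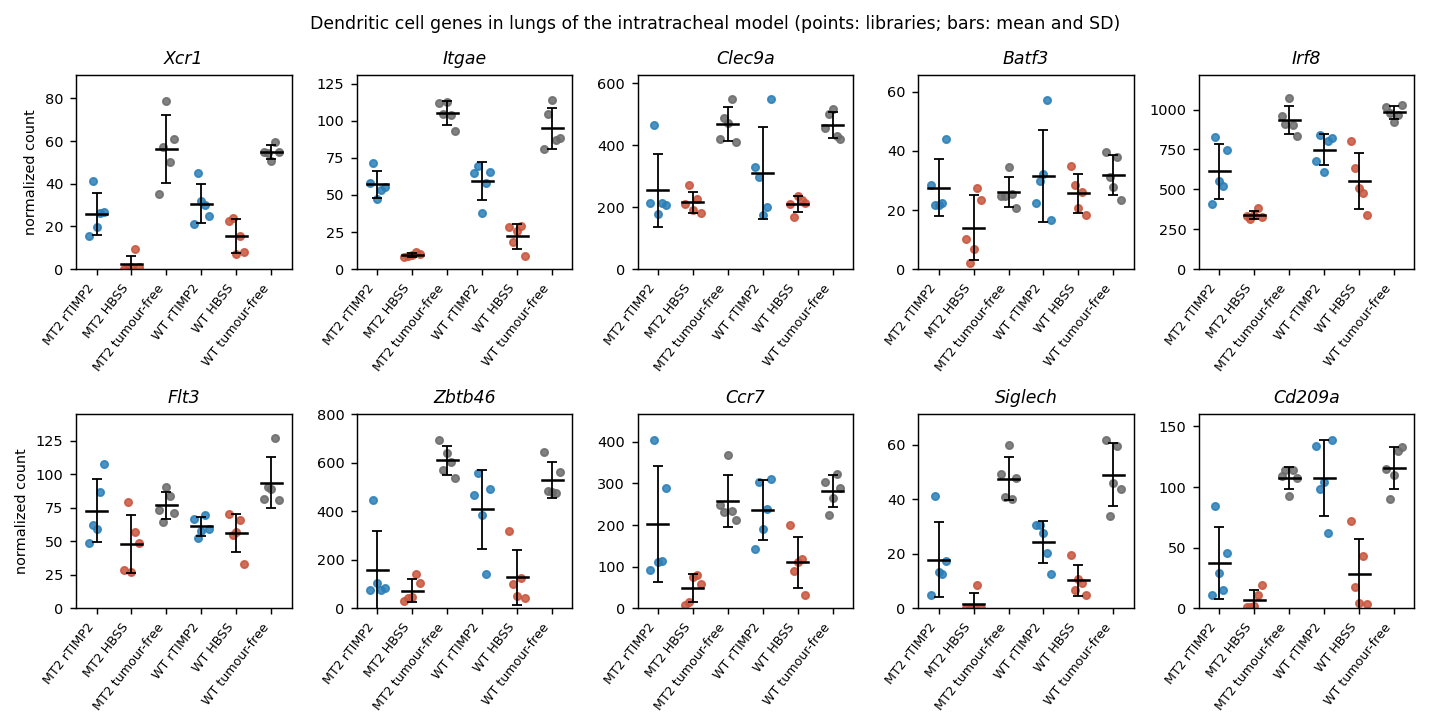
Normalized count of each of the 10 genes (vertical axes, each from 0) in the 30 intratracheal lungs, by group, with 1 point per library and bars for the mean and SD of 5 libraries, cut at 0 where the SD is larger than the mean. Itgae in the 5 MT2 rTIMP2 lungs lies at 47.1 to 71.8, above every MT2 HBSS lung (8.17 to 11.4) and below every MT2 tumour-free lung (92.8 to 112).

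With rTIMP2, Itgae and Xcr1 in MT2 lungs lay above every HBSS lung and below the tumour-free mean in each of the 5 libraries, and Xcr1 in replicate 2 lay within the tumour-free range. Itgae was 57.9, 71.8, 47.1, 53.4 and 55.3 in MT2 rTIMP2 lungs, against 8.17, 8.60, 9.66, 11.4 and 10.0 in MT2 HBSS lungs. Xcr1 was 15.7, 41.3, 19.8, 26.2 and 26.6 in MT2 rTIMP2 lungs, against 0, 0, 0.966, 9.51 and 0.835 in MT2 HBSS lungs. Neither gene overlapped between the groups, and the fitted log2 differences were 2.45 ± 0.30 (SE) for Itgae and 3.63 ± 0.65 for Xcr1. By the p of this comparison Itgae stood at place 1 and Xcr1 at place 10 of 16248 genes, so these values describe what singled them out and carry no test. None of the 16248 genes was called (0%) with limma, while 1559 had an unadjusted p under 0.05. The MT2 HBSS lungs are the low group of this comparison and also of the tumour comparison in MT2 lungs, so the 2 differences share libraries and their opposite signs are not separate evidence.

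Tumour transcripts in the same lungs were high. Hmga2, abundant in the injected cells, was 5299.5, 63.9, 3309, 4378 and 3112 in MT2 rTIMP2 lungs and 2624, 4392, 5069.6, 3735 and 4324 in MT2 HBSS lungs, against 9.52 to 14.1 in MT2 tumour-free lungs. MT2 rTIMP2 replicate 2 stands apart with little Hmga2 and the reporter near 0. The other 4 treated MT2 lungs had Hmga2 within or just above the range of MT2 HBSS lungs, and their Itgae, from 47.1 to 57.9, was above every MT2 HBSS value. Without replicate 2 the log2 differences were 2.37 for Itgae and 3.45 for Xcr1. Haspin inside Itgae was 117 ± 54.6 in MT2 rTIMP2 and 102 ± 29.4 in MT2 HBSS lungs.

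**Figure D2:**
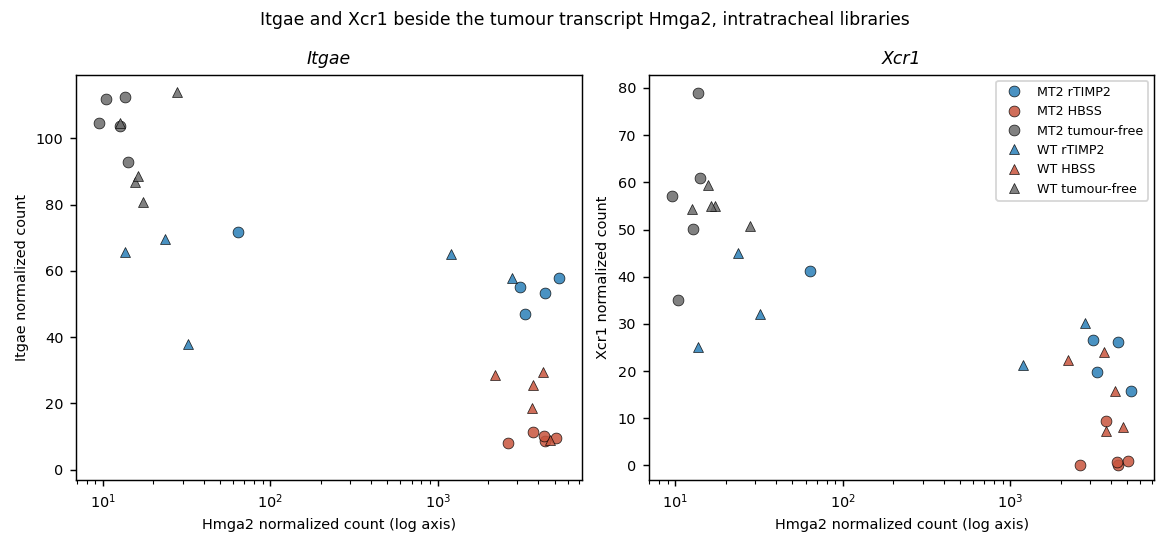
Normalized counts of Itgae (left) and Xcr1 (right) on linear axes against Hmga2 on a log axis in the 30 intratracheal lungs, with circles for MT2, triangles for WT and colours for rTIMP2, HBSS and tumour-free lungs. Of the MT2 rTIMP2 lungs, 4 lie at Hmga2 of 3112 to 5299.5 with Itgae at 47.1 to 57.9, where the MT2 HBSS lungs have 8.17 to 11.4.

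Of the other 8 genes, Siglech missed the filter of 5 libraries at 10 or more and 7 were tested in MT2 rTIMP2 against MT2 HBSS lungs, where none was called. Irf8 was 409, 828.6, 555, 519 and 749 in MT2 rTIMP2 and 335, 315, 338, 383 and 329 in MT2 HBSS lungs, a log2 difference of 0.80 ± 0.21 (limma adjusted p = 0.361). Ccr7 was 93.2, 405, 111, 113 and 289.7 in MT2 rTIMP2 and 9.19, 16.1, 76.3, 80.9 and 57.6 in MT2 HBSS lungs, a difference of 2.22 ± 0.66 (adjusted p = 0.427). The ranges of both genes were apart, so that 2 of the 7 were higher without overlap, where 1.11% of all tested genes were. Cd209a was 10.8, 84.5, 29.2, 15.5 and 46.1 in MT2 rTIMP2 and 1.02, 1.07, 1.93, 11.4 and 19.2 in MT2 HBSS lungs, a difference of 2.58 ± 0.78 (adjusted p = 0.434). Siglech was 4.90, 41.3, 13.2, 12.6 and 17.4 in MT2 rTIMP2 lungs, against 0 in 4 and 8.56 in 1 MT2 HBSS lung. The ranges of Cd209a and of Siglech overlapped, in Siglech only through MT2 HBSS replicate 4.

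The remaining 4 genes overlapped between MT2 rTIMP2 and MT2 HBSS lungs. Clec9a was 213, 465, 177, 213 and 206 in MT2 rTIMP2 lungs, against 180.3 to 269.8 in MT2 HBSS lungs, a log2 difference of 0.16 ± 0.28 (limma adjusted p = 0.848). Only replicate 2, the lung with few tumour transcripts, was above the HBSS range, and without it the difference was -0.08. Thus the treated MT2 lungs with high Hmga2 had Xcr1 and Itgae above all MT2 HBSS lungs and Clec9a within or just below their range. Clec1b, which overlaps Clec9a, stood at 171% of its MT2 tumour-free mean in MT2 rTIMP2 replicate 2. It was at 40.6 to 86.6% in the other treated MT2 lungs and at 71.3 to 101% in MT2 HBSS lungs. Its part in the level of Clec9a was not tested. Zbtb46 was 77.5, 445, 105, 75.8 and 85.0 in MT2 rTIMP2 lungs, again highest in replicate 2, with a difference of 0.91 ± 0.56 (adjusted p = 0.578). Batf3 differed by 1.28 ± 0.58 (adjusted p = 0.522) and Flt3 by 0.65 ± 0.38 (adjusted p = 0.561).

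In WT lungs 4 of the 10 genes rose with rTIMP2, namely Itgae, Zbtb46, Cd209a and Siglech. In this comparison 27.3% of 16908 genes were called and 16.0% were called higher. Of the 8 genes other than Xcr1 and Itgae, 3 were called higher. Which values singled out Xcr1 and Itgae is not recorded, so the call of Itgae is read with that limit. Itgae was 64.9, 69.6, 37.8, 57.9 and 65.8 in WT rTIMP2 lungs and 28.7, 18.6, 25.5, 29.3 and 9.08 in WT HBSS lungs, a log2 difference of 1.45 ± 0.36 (limma adjusted p = 0.0398). It was the 1 member whose groups did not overlap, where 2.50% of all tested genes were higher without overlap. The part of Haspin in this difference of Itgae was not tested. Zbtb46 was 466, 559.5, 385, 141 and 492 in WT rTIMP2 and 318, 101, 52.1, 124 and 42.4 in WT HBSS lungs, a difference of 1.91 ± 0.55 (adjusted p = 0.0398). Cd209a was 134, 98.2, 104, 62.0 and 139 in WT rTIMP2 and 71.7, 17.5, 4.85, 43.0 and 4.03 in WT HBSS lungs, a difference of 2.56 ± 0.72 (adjusted p = 0.0398). In both genes 1 pair of lungs overlapped: WT rTIMP2 replicate 4 was below WT HBSS replicate 1. Siglech was 30.4, 30.7, 27.5, 20.4 and 12.5 in WT rTIMP2 lungs, against 19.7, 6.56, 10.9, 9.43 and 5.04 in WT HBSS lungs, a difference of 1.23 ± 0.41 (adjusted p = 0.0494). Its call was lost with 0.25 in place of 1 added (adjusted p = 0.0522), without a filter (0.0642), with TMM rescaling (0.0532) and with all groups in 1 fit (0.0523). All 4 calls, and every other call of the comparison, disappeared without any 1 of 8 libraries: WT HBSS replicates 2, 3, 4 and 5 and WT rTIMP2 replicates 1, 2, 3 and 5. Over all fits with 1 library left out, 0 to 7 of the 10 were called, where 0 to 9584 of all genes were. The reported fit called 4619 genes. The 7 came without WT HBSS replicate 1. The 9584 came without WT rTIMP2 replicate 4, where 4 of the 10 were called.

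The other 6 genes were not called in WT lungs with rTIMP2. Xcr1 was 21.3, 45.0, 32.1, 30.2 and 25.1 in WT rTIMP2 and 22.4, 24.1, 7.28, 15.7 and 8.07 in WT HBSS lungs, a log2 difference of 1.05 ± 0.40 (limma adjusted p = 0.0675). The ranges overlapped through replicate 1 of the treated lungs alone. Ccr7 differed by 1.25 ± 0.44 (adjusted p = 0.0544), Irf8 by 0.49 ± 0.22 (adjusted p = 0.0991), Clec9a by 0.45 ± 0.29 (adjusted p = 0.231), Batf3 by 0.21 ± 0.36 (adjusted p = 0.659) and Flt3 by 0.15 ± 0.26 (adjusted p = 0.646).

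Treated WT lungs differed from each other in tumour transcripts. Hmga2 was 1198, 23.5, 32.1, 2779.8 and 13.6 in WT rTIMP2 lungs and 2212, 3641, 3711, 4242 and 4713 in WT HBSS lungs. The WT rTIMP2 lungs 2, 3 and 5 had Hmga2 near the tumour-free level and the reporter at 0. In the treated lungs with tumour transcripts, replicates 1 and 4, Itgae was 64.9 and 57.9, which lies inside the range of the other 3. Zbtb46 and Cd209a were lowest in replicate 4, which had the most Hmga2 of its group. Endothelial and epithelial markers moved with Zbtb46: 7 of 8 endothelial and all 8 epithelial genes rose, and the summed endothelial level was 7136 to 50889.6 in WT rTIMP2 and 4236 to 19557 in WT HBSS lungs, with none at 0. Their part in the differences of the 10 genes was not tested.

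**Figure D3:**
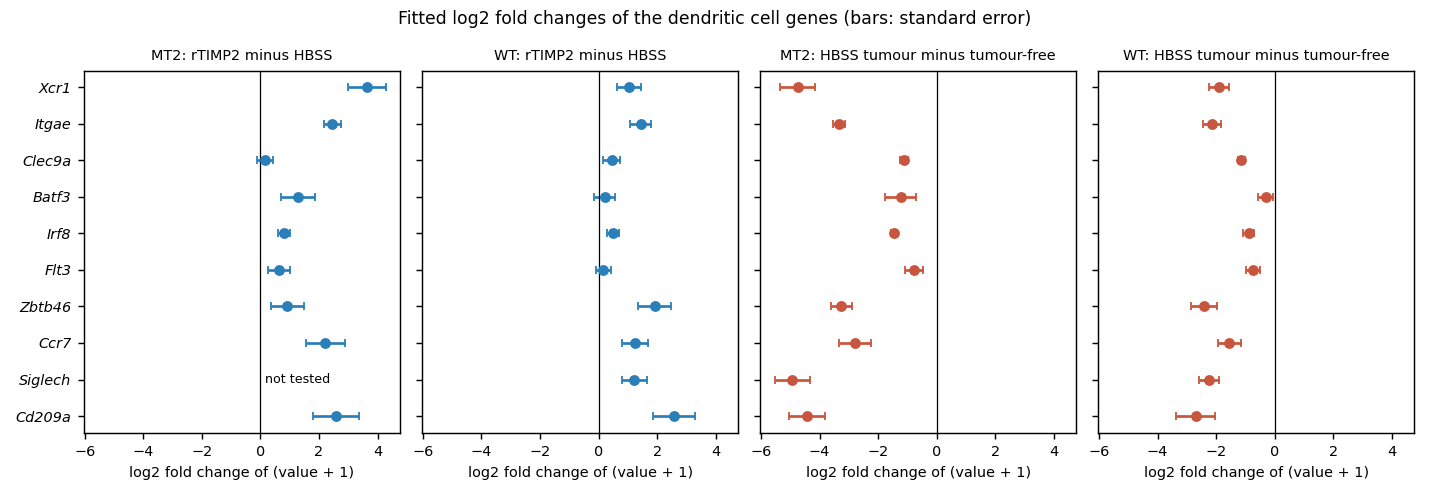
Fitted log2 fold changes of the 10 genes (points) with their standard error (bars) for rTIMP2 minus HBSS in MT2 and WT lungs and for HBSS tumour minus tumour-free in MT2 and WT lungs, from limma on log2 of the value plus 1. All 10 points are below 0 for tumour in both genotypes, and Siglech was not tested for rTIMP2 in MT2 lungs.

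None of the 10 genes was called between the genotypes in tumour-free lungs, where 0.0238% of 16774 genes were called. Xcr1 averaged 56.4 ± 16.0 in MT2 and 54.9 ± 3.10 in WT tumour-free lungs, and Itgae 105 ± 7.94 in MT2 and 95.0 ± 13.8 in WT tumour-free lungs (SD, n = 5 each). In HBSS tumour lungs Itgae was 8.17 to 11.4 in MT2 and 9.08 to 29.3 in WT, a difference of -1.04 ± 0.39, and Irf8 was 315 to 383 in MT2 and 339 to 802 in WT, a difference of -0.64 ± 0.21 (limma adjusted p = 0.516). These ranges overlapped through WT HBSS replicate 5, the lowest WT lung in both genes. Xcr1 and Siglech were too low to be tested there, and 0 of 16299 genes were called (0%), with 1208 at an unadjusted p under 0.05. In rTIMP2 lungs Itgae was 47.1 to 71.8 in MT2 and 37.8 to 69.6 in WT, and Xcr1 was 15.7 to 41.3 in MT2 and 21.3 to 45.0 in WT, so the treated lungs of both genotypes covered nearly the same range. None of 16858 genes was called (0%, with 2998 at an unadjusted p under 0.05). Zbtb46 and Cd209a were the members with the largest differences of MT2 minus WT rTIMP2 lungs, -1.64 ± 0.54 (limma adjusted p = 0.264) and -1.81 ± 0.52 (adjusted p = 0.264). Without MT2 rTIMP2 replicate 2 Zbtb46 and Cd209a were called, at -2.11 and -2.19, as 2 of the 10. Over all genes 6010 were called then, where the reported fit tested 16858. The 2 calls are therefore not read as a result about the 10 genes.

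The fitted tumour difference of Xcr1 was -4.75 in MT2 and -1.90 in WT lungs, and that of Siglech -4.94 in MT2 and -2.24 in WT lungs. A test of the difference between genotypes called none of the 8 genes other than Xcr1 and Itgae, where 0.0223% of 17927 genes were called. The MT2 minus WT difference was -2.84 ± 0.70 for Xcr1, -1.19 ± 0.35 for Itgae, -2.69 ± 0.72 for Siglech (limma adjusted p = 0.209) and -0.57 ± 0.22 for Irf8 (adjusted p = 0.384). Without MT2 HBSS replicate 4 the values were -3.35 for Siglech and -3.43 for Xcr1. Siglech was then at 0 in every MT2 HBSS lung, so this fit carries no test for it. The values of both genes, and the p of Siglech, depend on the 1 added before the logarithm. The same limit holds for both genes in the rTIMP2 effect. For the rTIMP2 effect the MT2 minus WT difference was 2.58 ± 0.76 for Xcr1, 1.00 ± 0.42 for Itgae and 2.08 ± 0.88 for Siglech (adjusted p = 0.669). In that test 0 of 17841 genes were called (0%), with 1053 at an unadjusted p under 0.05.

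Other dendritic cell genes gave a background for the 10. Of other cDC1 genes, 1 rose and 9 fell of 13 tested in MT2 HBSS against MT2 tumour-free lungs and 2 rose and 8 fell of 12 tested in the WT lungs. Wdfy4, which cDC1 need for cross-presentation, had a log2 difference of -2.80 ± 0.26 in MT2 lungs (limma adjusted p = 3.5e-06), and Cadm1, an adhesion molecule of cDC1, had -2.07 ± 0.22 in WT lungs (adjusted p = 1.6e-05). Of genes shared by dendritic cells, 0 rose and 12 fell of 15 tested in MT2 and 1 rose and 11 fell of 15 tested in WT lungs, led in MT2 lungs by Ciita, the activator of class II antigen presentation genes (-4.58 ± 0.29, adjusted p = 3.0e-07). The median log2 difference of the cDC1 list was -1.54 in MT2 and -1.002 in WT lungs, and that of the shared list -3.08 in MT2 and -1.51 in WT lungs. Of the cDC2 list, 1 rose and 7 fell of 11 tested in MT2 and 1 rose and 4 fell of 10 tested in WT lungs, with Mgl2 at -4.44 ± 0.61 in MT2 lungs (adjusted p = 5.8e-05). Of the pDC list, 3 rose and 7 fell of 14 tested in MT2 and 2 rose and 7 fell of 14 tested in WT lungs, and Spib, a transcription factor of pDC and B cells, was at -4.62 ± 0.42 in MT2 lungs (adjusted p = 3.2e-06).

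Genes of mature and migrating dendritic cells went both ways. In MT2 lungs 3 rose and 12 fell of 18 tested, and in WT lungs 4 rose and 11 fell of 18 tested. Cd200, an inhibitory surface ligand, fell in WT HBSS lungs, at -2.44 ± 0.36 (limma adjusted p = 0.00014), while Fscn1, an actin-bundling protein of mature dendritic cells that carcinoma cells also use, rose by 3.37 ± 0.25 in MT2 lungs (adjusted p = 7.5e-07). With rTIMP2 in WT lungs, 10 rose and 1 fell of 15 tested in the shared list, 4 rose and 1 fell of 12 tested in the cDC1 list and 5 rose and 2 fell of 18 tested in the mature list. In the cDC2 list 3 rose and 1 fell of 11 tested, and in the pDC list 2 rose and 3 fell of 14 tested. The median log2 differences were 1.24 in the shared, 0.53 in the cDC1, 0.52 in the mature, 0.11 in the cDC2 and 0.46 in the pDC list, that of the 10 genes was 1.14, and that over all tested genes was 0.03. Gpr141b led the cDC1 list there with 1.77 ± 0.43 (adjusted p = 0.0398), and Fscn1 was at -2.57 ± 0.69 (adjusted p = 0.0398). None of these lists had a called gene with rTIMP2 in MT2 lungs, where no gene was called.

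Genes of leukocytes at large and of the lung itself moved in the same lungs. Ptprc, the pan-leukocyte gene CD45, was 721 to 2147 in MT2 rTIMP2, 288 to 572 in MT2 HBSS and 1477 to 2102 in MT2 tumour-free lungs, and 1145 to 1823 in WT rTIMP2, 471 to 1535 in WT HBSS and 1704 to 2137 in WT tumour-free lungs. It fell in HBSS lungs of both genotypes, as did 8 of 8 epithelial genes. Over the whole T cell list, 12 of 13 tested genes fell in each genotype. Its summed level was 314 to 1399 in MT2 rTIMP2, 60.2 to 281 in MT2 HBSS and 1115 to 1378 in MT2 tumour-free lungs, with no T cell gene at 0 throughout a group. Of the B cell list, 0 rose and 10 fell of 10 tested in MT2 HBSS lungs and 0 rose and 10 fell of 10 tested in WT HBSS lungs, and 8 rose and 0 fell of 10 tested with rTIMP2 in WT lungs. Its summed level was 345 to 3531 in MT2 rTIMP2, 95.7 to 245 in MT2 HBSS and 1653 to 3341 in MT2 tumour-free lungs, with none at 0 throughout a group. T cells can carry Itgae and Ccr7 and B cells Irf8, and their part was not tested. Of 8 NK cell genes 7 fell and 1 rose, and of 9 alveolar macrophage genes 8 fell, in each genotype. The monocyte and macrophage list went both ways, with 6 of 12 genes higher and 4 lower in MT2 HBSS lungs, and a summed level of 16526 to 22055 in MT2 rTIMP2, 12321 to 17673 in MT2 HBSS and 21195 to 23828 in MT2 tumour-free lungs.

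Set against Ptprc of the same lung, Xcr1, Itgae, Siglech, Cd209a and Ccr7 were on average lowest in MT2 HBSS lungs, Itgae only just below WT HBSS. Clec9a, Irf8 and Flt3 were highest there, and Batf3 and Zbtb46 were neither. In MT2 HBSS lungs Siglech averaged -8.025, Cd209a -6.36, Ccr7 -3.49, Irf8 -0.27 and Flt3 -3.17 on this log2 scale. Where Xcr1 or Siglech was listed at 0, the value is set by Ptprc alone. The log2 level of Xcr1 minus that of Ptprc averaged -5.35 ± 0.29 in MT2 rTIMP2, -7.63 ± 1.09 in MT2 HBSS and -5.06 ± 0.45 in MT2 tumour-free lungs (SD, n = 5). For Itgae the same quantity was -4.18 ± 0.48 in MT2 rTIMP2, -5.28 ± 0.30 in MT2 HBSS and -4.13 ± 0.10 in MT2 tumour-free lungs. The treated MT2 lungs were thus near the tumour-free level on this scale in both genes. For Clec9a it was -2.13 ± 0.28 in MT2 rTIMP2, -0.94 ± 0.48 in MT2 HBSS and -1.99 ± 0.19 in MT2 tumour-free lungs. In WT lungs Xcr1 had -5.57 ± 0.50 with rTIMP2, -5.70 ± 0.56 with HBSS and -5.06 ± 0.08 without tumour, and Itgae had -4.63 ± 0.22 with rTIMP2, -5.16 ± 0.49 with HBSS and -4.29 ± 0.30 without tumour. These are descriptions without a test.

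**Figure D4:**
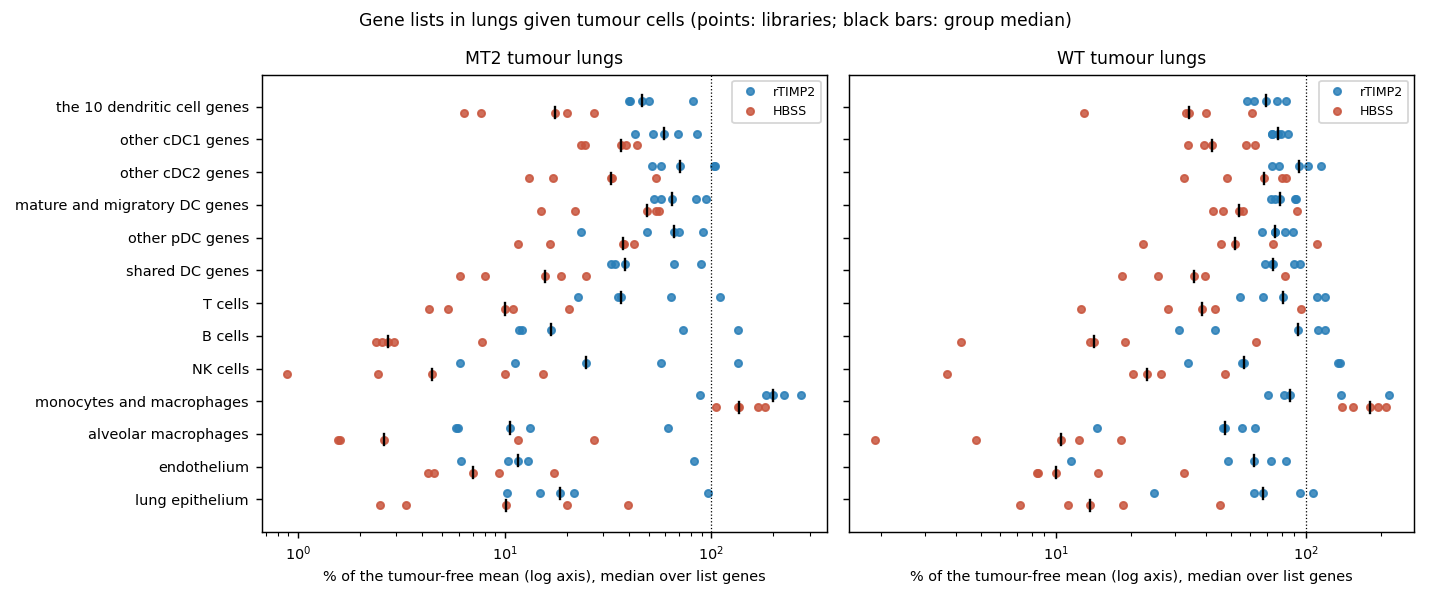
For each gene list (rows), the median over its genes of the level as a percentage of the tumour-free mean of the same genotype (log axis), with 1 point per tumour lung, blue for rTIMP2 and red for HBSS, black bars for group medians and a dotted line at the tumour-free mean. The 10 genes stood at 39.9 to 82.0% (median 46.0%) in MT2 rTIMP2 and 6.40 to 27.1% (median 17.6%) in MT2 HBSS lungs, without overlap.

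As a share of the tumour-free mean, the median over the 10 genes was 39.9 to 82.0% (median 46.0%) in MT2 rTIMP2 lungs and 6.40 to 27.1% (median 17.6%) in MT2 HBSS lungs. It was 58.0 to 83.5% (median 69.4%) in WT rTIMP2 and 12.9 to 61.1% (median 34.2%) in WT HBSS lungs. Other cDC1 genes stood at 42.9 to 85.1% (median 58.8%) in MT2 rTIMP2 and 23.4 to 43.6% (median 36.7%) in MT2 HBSS lungs, which overlap slightly. T cell genes stood at 22.6 to 109.7% (median 36.5%) in MT2 rTIMP2 and 4.30 to 20.5% (median 10.1%) in MT2 HBSS lungs. Endothelial genes stood at 6.18 to 82.5% (median 11.6%) in MT2 rTIMP2 and 4.26 to 17.3% (median 7.04%) in MT2 HBSS lungs. In endothelium the treated and untreated MT2 lungs overlapped widely except for MT2 rTIMP2 replicate 2, while in the 10 genes and in T cells every treated lung was above every HBSS lung. The same held for B cell genes, at 11.8 to 135% (median 16.8%) in MT2 rTIMP2 and 2.40 to 7.80% (median 2.74%) in MT2 HBSS lungs. It also held for Ptprc, at 38.7 to 115% (median 48.8%) in MT2 rTIMP2 and 15.4 to 30.7% (median 19.6%) in MT2 HBSS lungs, and for shared dendritic cell genes, at 32.7 to 89.5% (median 38.3%) in MT2 rTIMP2 and 6.06 to 24.7% (median 15.7%) in MT2 HBSS lungs. The members were chosen with such results known, so no test is attached to that order.

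Between pairs of the 10 genes the median Pearson correlation of log2 values was 0.73 over the 30 intratracheal lungs (45 pairs, range 0.098 to 0.959) and 0.085 over the 14 subcutaneous lungs (range -0.589 to 0.612). All genes share the libraries, and the intratracheal groups differ in tumour transcripts, so these values describe the mixture of groups. Over the 30 lungs, Psd4 (0.936), Lcp1 (0.934) and H2-Eb1 (0.933) were the genes most like Xcr1 among 12816 genes. The genes most like Itgae were Acsl5 (0.937), Tmem229b (0.927) and Lcp1 (0.925). Over the 14 lungs the genes most like Xcr1 were Plk2 (0.822), Mfsd8 (0.818) and Brca2 (0.806), and those most like Itgae were Timm22 (0.914), Bloc1s5 (0.863) and Acadm (0.86), so no gene was named for both tables.

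In the subcutaneous model Clec9a rose with rTIMP2 and the other 9 genes were not called. Clec9a was called with rTIMP2 from day 7 and from day 0, where 10.4% of 17389 and 8.10% of 17282 genes were called and 4.46% and 3.88% were called higher. A count of 1 called among the 10 genes is thus close to the share of all genes called in either direction. It was 609, 679.7, 768 and 744 with rTIMP2 from day 7 and 659, 680.2, 624, 689 and 727 with rTIMP2 from day 0, against 559, 452, 463, 572 and 549.9 with HBSS. Both treated groups lay above the highest HBSS lung, as did 6.49% and 4.44% of all tested genes. The log2 differences were 0.43 ± 0.0917 (limma adjusted p = 0.0108) and 0.38 ± 0.0823 (adjusted p = 0.0110), and both differences share the HBSS lungs. Clec1b, which overlaps Clec9a, averaged 299 ± 53.5 with rTIMP2 from day 7 (SD, n = 4), 381 ± 186 with rTIMP2 from day 0 (n = 5) and 211 ± 57.0 with HBSS (n = 5), and its part in the difference of Clec9a was not tested.

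Xcr1 was 43.6, 45.8, 35.6 and 63.4 with rTIMP2 from day 7 and 47.7, 61.1, 47.0, 84.4 and 56.8 with rTIMP2 from day 0, against 60.8, 33.1, 39.1, 41.4 and 38.8 with HBSS, differences of 0.14 ± 0.22 (limma adjusted p = 0.716) and 0.47 ± 0.21 (adjusted p = 0.168). Itgae was 106, 106, 119 and 98.6 with rTIMP2 from day 7 and 100.3, 105, 129, 102 and 102 with rTIMP2 from day 0, against 137, 129, 122, 112 and 94.9 with HBSS, with a difference of -0.14 ± 0.13 (adjusted p = 0.529) from day 7 and -0.14 ± 0.13 (adjusted p = 0.522) from day 0. The groups of both genes overlapped. Batf3, Irf8 and Cd209a were not called either, at 0.49 ± 0.23 (adjusted p = 0.185), 0.18 ± 0.10 (adjusted p = 0.297) and -0.38 ± 0.14 (adjusted p = 0.0968) for rTIMP2 from day 0. Cd209a was 144, 172, 149 and 158 with rTIMP2 from day 7 and 96.4, 114, 114, 131 and 124 with rTIMP2 from day 0, apart from each other as 3.25% of tested genes were in that direction, with a difference of 0.43 ± 0.12 (adjusted p = 0.154). In that comparison 0.235% of 17481 genes were called and none of the 10. Zbtb46 was 634 to 809.8 with rTIMP2 from day 0 and 591 to 963 with HBSS, a difference of -0.20 ± 0.12 (adjusted p = 0.308), and it was called as a second gene beside Clec9a only when HBSS replicate 1, its lowest HBSS value, was left out, at -0.32.

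**Figure D5:**
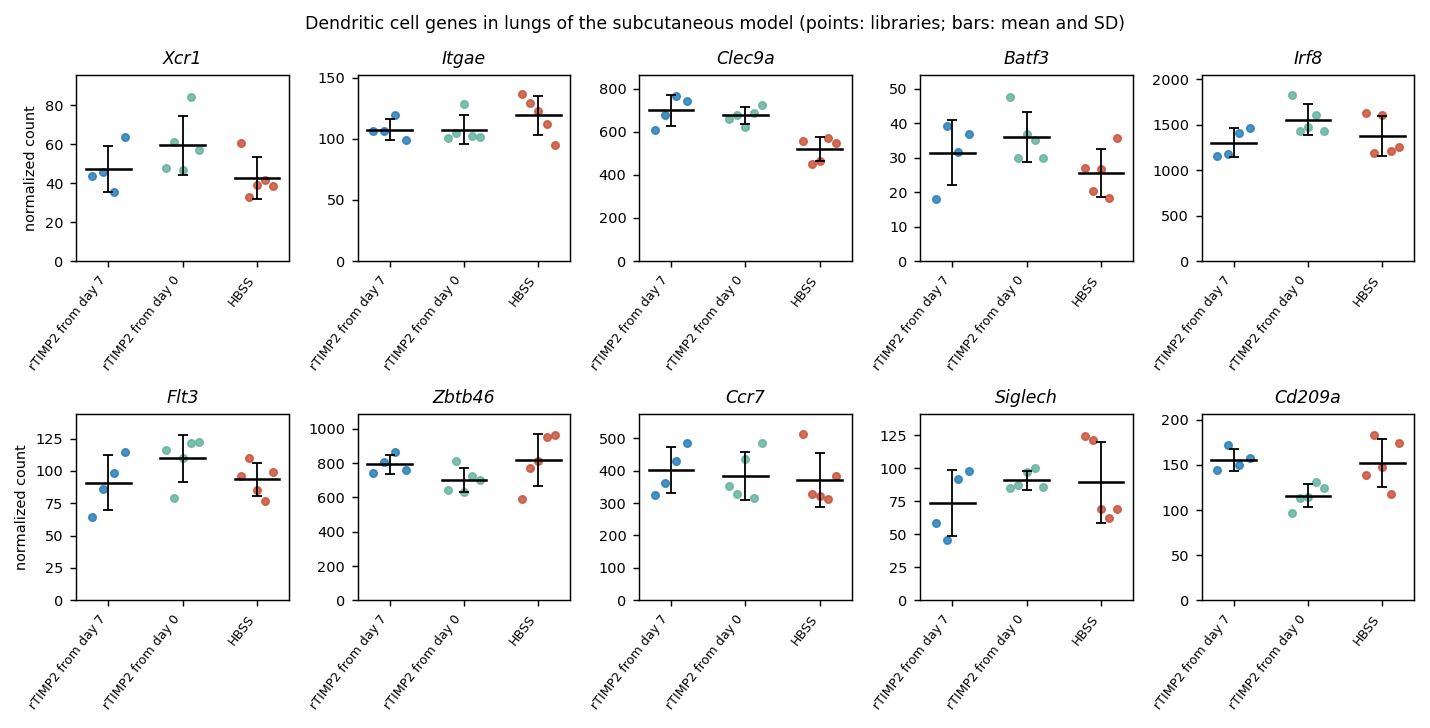
Normalized count of each of the 10 genes (vertical axes, each from 0) in the 14 subcutaneous lungs for rTIMP2 from day 7 (n = 4), rTIMP2 from day 0 (n = 5) and HBSS (n = 5), with 1 point per library and bars for the mean and SD. Clec9a is the 1 gene in which both treated groups lie above every HBSS lung, at 609 to 768 with rTIMP2 from day 7 and 624 to 727 with rTIMP2 from day 0, against 452 to 572 with HBSS.

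The reporter Luc2 was 19.3 to 41.3 with rTIMP2 from day 7, 16.3 to 44.8 with rTIMP2 from day 0 and 14.3 to 31.3 with HBSS in these lungs. Over 4 transcripts of the injected cells, Luc2 and Hmga2 among them, the sum was 28.7 to 56.1, 27.7 to 68.6 and 21.6 to 37.4. In intratracheal lungs with HBSS this sum was 7430 to 8731 in MT2 and 4286 to 10412 in WT. Hmga2 was thus low beside the reporter in the subcutaneous lungs. Whether Luc2 follows the amount of tumour cells there was not tested. Of other cDC1 genes, 2 rose and 2 fell of 13 tested with rTIMP2 from day 7 and 2 rose and 2 fell of 13 tested with rTIMP2 from day 0. Id2, a regulator that cDC1 need, rose by 0.42 ± 0.0756 with rTIMP2 from day 0 (limma adjusted p = 0.00397), while Snx22 was at -0.47 ± 0.12 (adjusted p = 0.0274). Kit, the stem cell factor receptor, was the 1 gene of the shared list to rise, by 0.58 ± 0.0877 (adjusted p = 0.00119). Ptprc was 2392 to 5709.8 with rTIMP2 from day 7, 2353 to 8346 with rTIMP2 from day 0 and 2163 to 3107 with HBSS, and it was not called.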

How the data were processed

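Polyadenylated RNA of 44 lungs was sequenced, and the authors deposited 2 tables of normalized counts, here treated as a signal with its own normalization in each table, since the labels do not define it. The submitters' processing notes list Partek, Bowtie2, STAR, DESeq2 and mm10 without roles. The annotation release, the counter, its strand setting and the handling of reads with several matches are unknown here. Between 78.8 and 84.5% of low intratracheal values and 81.5 to 82.8% of low subcutaneous values were whole multiples of a step, which gave the estimated depth but not enough for count tests. From these values log2(value + 1) was fitted with limma 3.58.1 (trended, robust variances) in R 4.3.3, with the compared groups alone in each fit, for 12 comparisons. Genes had to reach 10 in as many libraries as the smaller group holds, and a p under 0.05 after Benjamini-Hochberg adjustment across every gene of the fit counted as a call. The fit was tested on simulated data. Replicate numbers count mice, and p-values measure the spread between these samples, which may be partly technical. Same-numbered lungs did not deviate together, so numbers were not used as pairs. Alternatives were other added constants (0.25, 8), other filters, rescaling by TMM factors, all groups in 1 fit, a replicate block and leaving out each library. A further alternative used variances that were neither trended nor robust, and is named without trend below. The 10 genes and all lists were chosen with earlier results of these data known. Beside the 10, the genes named are at most the 3 called genes of a list with the largest change, partners and markers named with the lists, and the 3 genes most correlated with Xcr1 or Itgae. Overlapping genes, Xist and Ddx3y were added after values were seen.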

Additional observations from a re-analysis of the deposited data

Results flagged for a closer look

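In 8 of 90 sets of values (10 genes in 9 groups) the highest or lowest library stood apart from the rest of its group by Dixon's 95% criterion, which chance alone passes in about 1 of 20 sets. Clec9a in MT2 rTIMP2 replicate 2 was 465, against 177 to 213 in the other 4 lungs of its group, and Zbtb46 in the same library was 445, against 75.8 to 105. This lung also had the reporter near 0. Xcr1 in MT2 HBSS replicate 4 was 9.51, against 0 to 0.966 in the others, and Siglech in the same library was 8.56, against 0 in the other 4. Ccr7 was 367 in MT2 tumour-free replicate 3, against 213 to 247 in the others. Flt3 was 127 in WT tumour-free replicate 4, against 80.4 to 90.2. Among subcutaneous lungs with rTIMP2 from day 0, Itgae was 129 in replicate 3, against 100.3 to 105 in the others, and Flt3 was 78.7 in replicate 2, against 110.2 to 122.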

How the results depend on the processing

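Limits: depth of 10.68 to 17.12 M reads leaves values near 1 at about 1 read. Xcr1 and Siglech in MT2 HBSS lungs were thus not measurable beyond traces, nor was Cd209a in MT2 HBSS replicates 1, 2 and 3. The tumour-free cohort cannot be told apart from the lack of tumour. The causes of the changes below were not tested. The reported differences kept their direction with TMM rescaling. Called genes of the list in WT rTIMP2 against WT HBSS lungs were 4 in the reported fit, 2 with a filter at 50 and 0 with the replicate block, and 0 to 7 with 1 library left out; over all genes the counts were 7773 with all groups in 1 fit, 0 with the block and 0 to 9584 with 1 library left out. Siglech was no longer called there with 0.25 added, without a filter, with TMM or with all groups fitted. In MT2 rTIMP2 against MT2 HBSS lungs, 1 gene over all passed with 8 added and 1 without trend, and 575 with all groups in 1 fit; of the 10 these were 1, 1 and 5, which hold Itgae and in the last case Xcr1, whose passing there is no test, beside Irf8, Ccr7 and Cd209a; leaving out 1 library gave 0 to 0 of both. Between genotypes, all groups in 1 fit gave 119 genes over all in HBSS lungs (1 of the 10, Itgae, again no test) and 0 genes over all in tumour-free lungs, where 2 were called without trend. The counts with 1 library left out were 2 to 9 in tumour-free, 0 to 1 in HBSS and 0 to 6010 in rTIMP2 lungs, and 0 to 2 of the 10 in rTIMP2 lungs. The tumour difference between genotypes had 0 genes with all groups in 1 fit, 2 with the block and 2 to 55 with 1 library left out (0 to 2 of the 10), and the rTIMP2 difference 0 to 0. The highest count of the 10 there came without MT2 HBSS replicate 4 and carries no test. For HBSS tumour against tumour-free lungs the ranges were 10879 to 12778 genes in MT2 (8 to 10 of the 10) and 11395 to 13018 in WT (9 to 9). Subcutaneous counts were 2298 for day 0 with all groups fitted, 1100 for day 7 without trend and 1087 with the block, and for day 7 against day 0 they were 0 without trend and 22 with the block. Leaving out 1 library gave 861 to 1453 for day 0 (1 to 2 of the 10), 834 to 2149 for day 7 (1 to 1) and 8 to 65 for day 7 against day 0 (0 to 0). The correlation of same-numbered deviations ranged from -0.566 to 0.777, and no comparison had all pairs over 0.1. Values near 0 turned sign when 1 library was left out: over such fits Xcr1 ranged from -0.0096 (without day 7 replicate 4) to 0.27 for rTIMP2 from day 7, Flt3 from -0.020 (without WT HBSS replicate 5) to 0.24 and Batf3 from -0.032 (without WT rTIMP2 replicate 4) to 0.40 for rTIMP2 in WT lungs, and Clec9a from -0.079 (without replicate 2) to 0.27 for rTIMP2 in MT2 lungs.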
